A study of Mus musculus with 20 samples.

Results

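The comparison described here is the response of resting mouse CD8 T cells to thapsigargin (TG), read across all genes. Its libraries were taken by their sample titles: 2 control-guide T cell libraries labelled resting with TG and 2 labelled resting with vehicle, 4 of the 20 libraries of the series. All were OT-I/Cas9 CD8 T cells. OT-I cells carry a transgenic T cell receptor for an ovalbumin peptide, and Cas9 is the nuclease that allows guide RNAs to disrupt genes; the genotype of these 4 libraries is given as Ctrl. The cultures of both groups held IL-2 at 10 ng/mL, IL-7 at 0.5 ng/mL, IL-15 at 1 ng/mL and puromycin at 4 µg/mL. Cells received TG at 50 ng/mL or dimethyl sulfoxide (the vehicle) for 8 hours, and the resting cells were not given anti-CD3, the antibody that engages the T cell receptor complex. The age and sex of the donor mice are not given in the sources used here. The series' title names SERCA2b inhibition, T cell activation and tumor cell death, and its other libraries are T cells activated with anti-CD3, T cells with an Atp2a2 guide and B16F10 melanoma cells.

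TG blocks the SERCA pumps, which move calcium from the cytosol into the endoplasmic reticulum (ER). When the store empties, the ER sensor STIM1 opens the ORAI1 channel in the plasma membrane, and the calcium that enters activates calcineurin, a phosphatase that lets NFAT transcription factors enter the nucleus. The same route lies downstream of the T cell receptor. The ER also needs calcium for its chaperones. When folding fails, the sensors PERK, IRE1 and ATF6 start the unfolded protein response, and PERK shares with other kinases the integrated stress response (ISR), in which the transcription factor ATF4 induces genes for amino acid supply and stress.

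Depth was 12799661 and 11028101 counts in the vehicle libraries and 12522986 and 11022274 counts in the TG libraries. Values below are counts per 1000000 counts (CPM), scaled between libraries. The 10 markers of CD8 T cells were detected in all 4 libraries, at a summed 5848 and 5784 CPM with vehicle and 7100 and 7355 CPM with TG. Markers of several other cell types were low. B cell markers summed to at most 5.22 CPM and natural killer cell markers to at most 1.02 CPM. Erythroid markers summed to at most 0.172 CPM and melanocyte markers to at most 6.84 CPM. The 4 markers of CD4 and regulatory T cells summed to 62.9 and 68.5 CPM with vehicle and 144 and 153 CPM with TG. Of these, Cd4 itself was at 0.627 CPM with vehicle and 0.457 CPM with TG. Myeloid markers summed to 17.2 and 17.6 CPM with vehicle and 4.96 and 4.99 CPM with TG, and 4 to 7 of the 10 were at 0. Dendritic cell markers summed to 26.4 and 26.3 CPM with vehicle and 64.5 and 67.8 CPM with TG, with 1 or 2 of the 6 at 0; that rise lay in Cd74, the invariant chain of MHC class II, at 4.99 CPM in each vehicle library and 46.9 and 48.9 CPM with TG. The part of other cells in the results was not tested. The word resting is the labels' own: the vehicle cells held Mki67, a marker of cycling cells, at 831 and 829 CPM, and Gzmb at 10692 and 10247 CPM.

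TG changed most of the measured transcriptome of these cells. Of 13432 genes tested, 9300 were called, that is, passed an adjusted p of 0.05 in edgeR's quasi-likelihood test (69.2%). Of these, 4574 were higher with TG (34.1% of the tested genes) and 4726 were lower (35.2%). A change of at least 2-fold was called in 1474 higher genes (11%) and in 1751 lower genes (13%). List counts given below are to be read beside these shares, and a count near its share says nothing particular about a list. The median log2 change over all tested genes was 0.0064, and 83.3% of the tested genes had no overlap between the vehicle pair and the TG pair. The common biological coefficient of variation was 2.8%. The labels do not say whether the libraries of a group were separate cultures, so p values measure only the spread between these libraries, which may be technical. In bulk RNA, fewer cells of a type and less RNA per cell cannot be told apart, and a share of counts says nothing of the total RNA per cell.

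**Figure D1:**
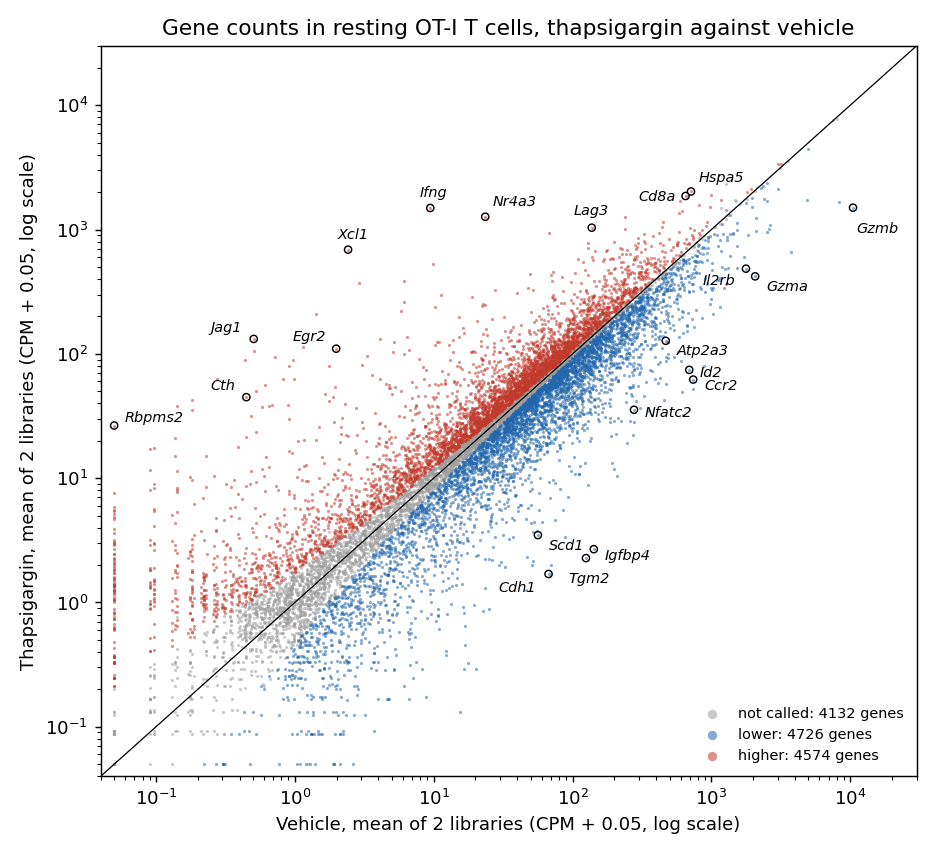
Mean CPM of every tested gene in the 2 vehicle libraries (horizontal) and the 2 TG libraries (vertical), both on log axes with 0.05 CPM added so that genes at 0 are drawn. Red points are the 4574 genes called higher, blue points the 4726 called lower and grey points the 4132 not called; circles mark genes named in the text, and the black line is equality.

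The pumps and channels that handle ER calcium changed in opposite directions. Atp2a2, which encodes SERCA2 and lies at chromosome 5, 122453513 to 122502225 (GRCm38), was at 225 and 226 CPM with vehicle and at 361 and 368 CPM with TG. Its log2 change was 0.69 (SE 0.04, adjusted p = 2.67e-24). Atp2a3, which encodes SERCA3 (chromosome 11, 72961169 to 72993044), went the other way, from 471 and 467 CPM to 132 and 122 CPM, a log2 change of -1.88 (SE 0.04, adjusted p = 7.95e-43). The libraries of the groups did not overlap for either pump, which was so for 83.3% of all tested genes. Orai1, the channel of store-operated calcium entry, rose from 21.0 and 18.5 CPM to 103 and 105 CPM, whereas Stim1, its sensor in the ER membrane, fell from 117 and 118 CPM to 63.1 and 66.1 CPM. Itpr3, an IP3 receptor that releases stored calcium, fell from 256 and 267 CPM to 55.7 and 51.1 CPM. Of all tested genes 34.1% were higher and 35.2% lower. Over the 34 tested genes of calcium stores and entry, 14 were higher and 17 lower, with a median log2 change of -0.13. With a filter of 5 CPM in 2 libraries the direction turned, to 15 higher and 13 lower of 30 and a median of 0.086.

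Genes of the calcineurin route moved in both directions. Rcan1, a calcineurin inhibitor that is itself an NFAT target, was at 6.59 and 8.13 CPM with vehicle and at 52.6 and 55.5 CPM with TG, a log2 change of 2.88 (SE 0.11). Nfatc2, the NFAT factor that resting T cells hold ready, fell from 269 and 285 CPM to 38.3 and 32.6 CPM, a log2 change of -2.96 (SE 0.05). Nfatc1, which T cells induce after stimulation, rose from 231 and 236 CPM to 374 and 390 CPM, and Nfat5, the NFAT relative known for the response to osmotic stress, rose from 131 and 147 CPM to 626 and 580 CPM. The calcineurin catalytic subunits Ppp3ca and Ppp3cc, and the calmodulin genes Calm2 and Calm3, were called lower, with log2 changes between -1.02 and -0.80. In all, 9 of 23 tested members of the calcineurin and NFAT list were higher and 11 were lower. Beside this, 34.1% of all tested genes were higher and 35.2% lower.

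Genes that T cells induce within hours of receptor stimulation were among the strongest risers. Nr4a3, an orphan nuclear receptor, was at 23.5 CPM in both vehicle libraries and at 1249 and 1286 CPM with TG, a log2 change of 5.75 (SE 0.05, adjusted p = 2.32e-61). Its relatives followed: Nr4a1, often used as a reporter of receptor signalling, went from 2.73 and 3.79 CPM to 93.8 and 98.7 CPM, and Nr4a2 from 5.55 and 6.56 CPM to 268 and 257 CPM. Egr2, an NFAT-dependent transcription factor, went from 1.93 and 1.94 CPM to 109 and 111 CPM. In each of these genes every TG library lay more than 10-fold above every vehicle library. Irf4, a factor whose level follows the strength of receptor signalling, rose from 241 and 234 CPM to 1274 and 1266 CPM. Spry1, a brake on growth factor signalling, rose from 0.322 and 1.02 CPM to 91.5 and 96.4 CPM, and the surface receptors Crtam and Tnfrsf4 (OX40) had log2 changes of 4.73 and 2.91.

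Other early genes of the same list did not rise. Egr1, the immediate early factor downstream of MAPK signalling, fell from 158 and 166 CPM to 39.0 and 40.0 CPM, and the AP-1 members Junb and Jund fell with log2 changes of -1.19 and -1.38. Il2ra, the high-affinity IL-2 receptor chain and a standard activation marker, was at 1343 and 1295 CPM with vehicle and 1313 and 1323 CPM with TG (log2 change -0.0011, SE 0.03, adjusted p = 0.977). The activation marker Cd69 was slightly lower (log2 change -0.18), and Myc, which drives growth of activated T cells, was slightly higher, from 194 and 211 CPM to 236 and 235 CPM. Over the list of 36 early activation genes, 22 were higher, 16 of them by at least 2-fold, and 9 were lower; the median log2 change was 0.71. Among 18 feedback genes of MAPK signalling, 8 were higher and 9 lower: Dusp6 fell from 211 and 207 CPM to 77.0 and 80.6 CPM, and Rasa3 from 271 CPM in both to 53.3 and 55.8 CPM.

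**Figure D2:**
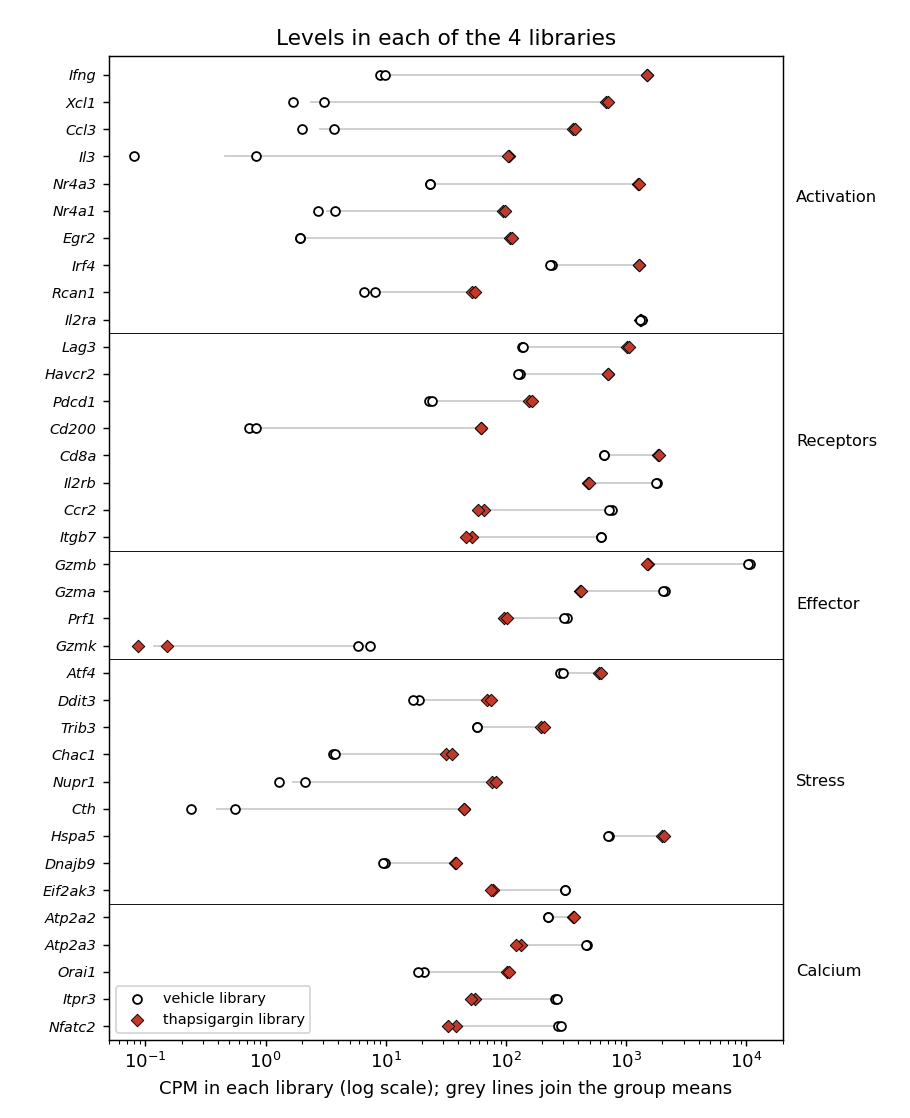
CPM of 36 named genes in each of the 4 libraries on a log axis, with open circles for the 2 vehicle libraries, red diamonds for the 2 TG libraries and grey lines between the group means. Ifng, Xcl1, Nr4a3 and Egr2 lie far to the right with TG and Gzmb, Ccr2 and Nfatc2 far to the left, while the 4 libraries coincide at Il2ra.

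Several cytokine and chemokine transcripts rose from near silence to high levels without anti-CD3. Ifng, which encodes interferon gamma and lies at chromosome 10, 118441046 to 118445892, was at 9.01 and 9.79 CPM with vehicle and at 1481 and 1502 CPM with TG, a log2 change of 7.31 (SE 0.05, adjusted p = 1.72e-66). Xcl1, a chemokine that draws cross-presenting dendritic cells, went from 1.69 and 3.05 CPM to 678 and 701 CPM, a log2 change of 8.21 (SE 0.08). Ccl3, an inflammatory chemokine, went from 2.01 and 3.69 CPM to 361 and 378 CPM. In all 3 genes the fitted change was over 7 on the log2 scale, against a spread of under 2-fold within each pair. Ccl4 (5.23 and 6.37 CPM to 224 and 221 CPM), Ccl1 (0.402 and 0.369 CPM to 88.1 and 91.4 CPM) and Il3 (0.0804 and 0.831 CPM to 106 and 105 CPM) moved the same way. Csf2, the gene of the growth factor GM-CSF, rose with a log2 change of 3.68 and Tnfsf14 (LIGHT) with 5.73, whereas Tnf rose only from 90.4 and 81.5 CPM to 133 and 137 CPM.

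The transcript of IL-2 stayed near absent. Il2 had no count in either vehicle library and 17 counts over the TG libraries, 0.602 and 0.775 CPM, which is at least 5.29-fold higher against a floor of 3 counts over the vehicle group. Il21 also had no count with vehicle and reached 1.58 and 1.46 CPM, at least 11.8-fold higher. Several cytokines fell: Lta (lymphotoxin alpha) went from 157 and 155 CPM to 47.9 and 48.6 CPM, Osm (oncostatin M) from 67.3 and 68.6 CPM to 18.7 and 19.8 CPM, Il24 from 51.5 and 46.8 CPM to 7.60 and 8.00 CPM, and the anti-inflammatory Il10 from 61.6 and 61.4 CPM to 30.0 and 30.9 CPM. Of 35 tested cytokines and chemokines 18 were higher, 15 of them by at least 2-fold, and 10 were lower; the median log2 change was 0.89.

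Receptors that restrain T cells rose together with the cytokines. Lag3, which binds MHC class II, rose from 136 and 139 CPM to 1021 and 1050 CPM, a log2 change of 2.91 (SE 0.04). Pdcd1, which encodes PD-1, rose from 23.1 and 24.3 CPM to 155 and 163 CPM (log2 change 2.75, SE 0.06), and Havcr2, which encodes TIM-3, from 132 and 126 CPM to 712 and 700 CPM. Tigit went from 22.9 and 20.9 CPM to 115 and 114 CPM, and Cd200, an inhibitory ligand, from 0.724 and 0.831 CPM to 62.3 and 62.5 CPM. For these 5 genes the vehicle and TG libraries stood at least 4-fold apart. Tox, a transcription factor of exhausted T cells, was low but rose, from 5.87 and 6.28 CPM to 16.6 and 19.1 CPM. Cd244a (2B4) fell from 56.5 and 58.8 CPM to 7.75 and 7.4 CPM and was the only member lower by at least 2-fold. In all, 14 of 20 tested members were higher and 5 lower; the count of lower members was 2 with DESeq2, 3 without vehicle replicate 1 and 3 with a filter of 5 CPM.

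Most genes of the killing machinery fell. Gzmb, which encodes granzyme B and lies at chromosome 14, 56258838 to 56262260, was the most abundant of these transcripts and was at 10692 and 10247 CPM with vehicle against 1509 and 1490 CPM with TG, a log2 change of -2.80 (SE 0.03, adjusted p = 1.90e-56). The 5 largest falls in CPM, gene models left out, were those of Gzmb, Actb, Vim, Tmsb4x and Gzma. Gzma went from 2122 and 2010 CPM to 417 and 424 CPM, and Prf1, the pore-forming protein that delivers granzymes, from 319 and 304 CPM to 96.7 and 101 CPM. Gzmk had 155 counts with vehicle and 3 with TG, a ratio of 55.3 (95% exact interval 18.6 to 271, counting error only). Serpinb9, which protects the killer cell from its own granzyme B, and the lysosomal protease Ctsd were lower too, with log2 changes of -1.16 and -1.86. Granule genes outside this pattern were Nkg7 (847 and 788 CPM to 1553 and 1602 CPM), the proteoglycan Srgn (449 and 426 CPM to 1026 and 1058 CPM) and Stx11, a syntaxin of granule release, with a log2 change of 1.98. Fasl, the death ligand, rose from 93.3 and 92.4 CPM to 148 and 151 CPM. Over 26 tested granule genes 17 were lower and 6 higher, with a median log2 change of -0.83. The granzyme genes are close copies of each other, so the split of reads among Gzmc to Gzmg is uncertain.

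The T cell receptor complex itself moved little, but the coreceptor rose. Cd8a was at 653 and 650 CPM with vehicle and at 1834 and 1889 CPM with TG (log2 change 1.52, SE 0.03), and Cd8b1 went from 297 and 292 CPM to 754 and 803 CPM. The CD3 chain genes Cd3e, Cd3d and Cd3g were slightly lower, with log2 changes from -0.56 to -0.10, while Cd247, the zeta chain, was higher at 0.57. Among the enzymes and adaptors behind the receptor, the kinase gene Zap70 rose (245 and 261 CPM to 472 and 479 CPM), and the adaptor gene Lat (375 and 373 CPM to 149 and 155 CPM) and the phospholipase gene Plcg1 (337 and 329 CPM to 128 CPM in both) fell. Among the negative regulators in the list, Cblb, a ubiquitin ligase that raises the threshold of activation, rose from 229 and 228 CPM to 638 and 639 CPM, and the phosphatase Ubash3b rose from 74.3 and 73.9 CPM to 280 and 263 CPM. Over this list of 40 genes 21 were higher and 15 lower.

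Several receptors for cytokines and for homing signals fell. Il2rb, the chain that IL-2 and IL-15 share, was at 1791 and 1756 CPM with vehicle and at 478 and 491 CPM with TG (log2 change -1.87, SE 0.03). Il4ra went from 484 and 492 CPM to 101 and 98.1 CPM, Ifngr1, a chain of the interferon gamma receptor, from 629 and 617 CPM to 148 CPM in both, and Il12rb1 from 366 and 384 CPM to 73.0 and 72.5 CPM. Pim2, a survival kinase induced by these receptors, fell from 430 and 428 CPM to 64.8 and 63.7 CPM. In these 5 genes every vehicle library lay at least 3-fold above every TG library. Il7r (173 and 169 CPM to 374 and 373 CPM) and Stat3 (335 and 333 CPM to 765 and 796 CPM) rose. Of 31 tested members of the list of cytokine receptors, STAT and feedback genes, 20 were lower and 8 higher.

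Of 24 tested homing and adhesion genes 18 were lower, 16 of them by at least 2-fold, and 2 were higher (Itgb1 and Cd44); the median log2 change was -1.53. Ccr2, a receptor for monocyte-attracting chemokines, was at 759 and 720 CPM with vehicle and at 66.0 and 58.1 CPM with TG, a log2 change of -3.57 (SE 0.05). Itgb7, the integrin chain used for entry into the gut, fell from 621 and 615 CPM to 51.7 and 46.9 CPM. Ccr4 fell from 52.4 and 50.8 CPM to 2.18 and 2.07 CPM, a log2 change of -4.60. The chemokine receptors Cxcr3, Cxcr6 and Cxcr4 were lower, at log2 changes of -3.09, -2.64 and -2.03. S1pr1, the receptor that lets T cells leave lymph nodes, went from 51.5 and 48.0 CPM to 3.99 and 4.56 CPM, and Klf2, the factor that induces it, from 14.6 and 14.5 CPM to 2.48 and 2.24 CPM.

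Factors of naive and memory T cells fell in part. Tcf7, which encodes TCF1 and marks cells that can renew themselves, went from 208 and 209 CPM to 80.5 and 85.0 CPM (log2 change -1.34, SE 0.05), and Lef1, Eomes, Id3 and Foxo1 were lower at log2 changes of -1.47, -1.70, -2.72 and -1.02. Ly6c2, a surface protein of memory CD8 T cells, fell from 271 and 248 CPM to 29.0 and 28.4 CPM. Bach2, a repressor that preserves memory potential, rose from 64.9 and 74.4 CPM to 204 and 188 CPM, and the costimulatory receptor Cd27 from 82.9 and 87.5 CPM to 319 and 327 CPM. Over this list 14 of 27 tested genes were lower and 10 higher. Among 21 effector transcription factors 12 were higher and 7 lower, where 34.1% of all tested genes were higher and 35.2% lower. Id2, a factor that effector CD8 T cells depend on, fell from 703 and 683 CPM to 75.9 and 72.6 CPM. Zeb2, a factor of terminal effector cells, rose from 2.17 and 2.31 CPM to 39.6 CPM in both, Ikzf3 (Aiolos) from 68.4 and 71.3 CPM to 426 and 434 CPM, and Tbx21, which encodes T-bet, from 40.4 and 44.4 CPM to 96.7 and 97.3 CPM.

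Most transcripts of the ISR list rose, while the activity of the pathway itself was not measured. Of 25 tested ISR factors and feedback genes 22 were higher, 15 by at least 2-fold, and 1 was lower, with a median log2 change of 1.39, where 34.1% of all tested genes were higher. Atf4 rose from 280 and 300 CPM to 596 and 619 CPM (log2 change 1.07, SE 0.04). Ddit3, which encodes the factor CHOP, rose from 19 and 16.7 CPM to 69.0 and 74.4 CPM (log2 change 2.00, SE 0.08), and Trib3, a pseudokinase that CHOP and ATF4 induce, from 57.1 and 57.6 CPM to 194 and 206 CPM. No vehicle library reached the lowest TG library in these 3 genes, and 83.3% of all tested genes had no overlap between the pairs. Chac1, which degrades glutathione, went from 3.62 and 3.79 CPM to 31.4 and 35.5 CPM, and Nupr1, a small stress-induced chromatin protein, from 1.29 and 2.12 CPM to 76.6 and 82.8 CPM. Slc7a11, the cystine importer, went from 0.322 and 0.739 CPM to 11.4 and 12.1 CPM. Ppp1r15a, the phosphatase subunit that switches the ISR off, rose from 32.8 and 32.7 CPM to 149 and 156 CPM, and the factors Atf3 and Atf5 had log2 changes of 3.13 and 3.10. The member that fell was Ddit4, an inhibitor of mTORC1, from 374 and 402 CPM to 168 and 169 CPM.

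Amino acid supply rose as a block. Of 28 tested genes for amino acid synthesis and uptake 24 were higher, 18 by at least 2-fold, and 3 were lower, with a median log2 change of 1.42. Cth, which makes cysteine from cystathionine, went from 0.241 and 0.554 CPM to 44.9 and 44.7 CPM (log2 change 6.82, SE 0.18). Aldh1l2, a mitochondrial folate enzyme, went from 0.804 and 0.462 CPM to 38.3 and 39.2 CPM. Asns, which makes asparagine, went from 88.0 and 78.6 CPM to 406 and 419 CPM. Cth and Aldh1l2 were thus near absent with vehicle, while Asns was already present. Among transporters, Slc6a9 (glycine) rose from 4.18 and 3.97 CPM to 131 and 130 CPM, Slc1a4 (neutral amino acids) from 9.41 and 11.1 CPM to 233 and 248 CPM, and the cationic transporter Slc7a3 from 3.70 and 4.43 CPM to 63.0 and 63.5 CPM. The lower members included the transporters Slc43a1 and Slc43a2. Of 22 genes for tRNA synthetases and their partners 14 were higher and 3 lower (Hars, Kars and Qars). Eprs went from 300 and 291 CPM to 848 and 861 CPM, and Cars, Nars, Farsb and Iars had log2 changes between 1.27 and 1.43.

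ATF4 is known to bind a composite element for C/EBP and ATF factors. The 250 bases before each RefSeq start of a gene (build GRCm38.p6) were therefore searched for the letters TGATGNAAN on both strands. A gene with several starts was counted if any of them had a match. The letters were found in 233 of 9652 tested genes with a promoter (2.41%). Among all genes called higher by at least 2-fold they were in 41 of 997 with a promoter (4.11%). Among the ISR genes called higher they were in 6 of 19 (31.58%), and in 4 of 18 such amino acid genes (22.22%). The synthetase genes called higher held them in 3 of 9 (33.33%). Whatever the call, the tested members of these 3 lists held them in 6 of 20 (30.0%), 4 of 21 (19.05%) and 3 of 14 (21.43%). A match is a description of these letters and not a binding site. The windows of 6 strongly induced genes are shown to let the shared element be read next to its values, with the match in capitals and 10 bases on each side.

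Nupr1 (chr7:126625563-126625591, - strand): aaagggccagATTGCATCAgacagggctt
Chac1 (chr2:119351038-119351066, + strand): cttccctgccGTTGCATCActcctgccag
Atf3 (chr1:191183426-191183454, - strand): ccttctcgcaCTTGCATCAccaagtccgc
Slc7a11 (chr3:50443643-50443689, - strand): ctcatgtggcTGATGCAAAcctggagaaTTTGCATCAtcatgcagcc
Asns (chr6:7693214-7693242, - strand): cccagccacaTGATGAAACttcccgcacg
Pycr1 (chr11:120643833-120643861, - strand): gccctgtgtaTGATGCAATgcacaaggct

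Slc7a11 held 2 matches within its window. Pycr1, which makes proline, rose from 4.18 and 5.36 CPM to 53.8 and 52.2 CPM, a log2 change of 3.48. Atf3 went from 5.07 and 6.46 CPM to 48.6 and 51.6 CPM. The window shown for Atf3 precedes a start within the span of the gene (chromosome 1, 191170296 to 191218039).

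The sensors of the unfolded protein response changed unequally. Eif2ak3, which encodes PERK, fell from 312 and 308 CPM to 77.8 and 75.5 CPM, a log2 change of -2.02 (SE 0.04, adjusted p = 8.41e-43). Ern1, which encodes IRE1, was at 30.0 and 32.7 CPM with vehicle and at 39.7 and 37.1 CPM with TG, a log2 change of 0.30. Atf6 rose from 75.7 and 72.0 CPM to 148 and 151 CPM. So PERK's transcript was about 4-fold lower while those of the other two sensors were higher. Xbp1, the transcript that IRE1 splices, rose from 164 and 166 CPM to 252 and 261 CPM; gene counts do not separate its spliced form. The ER-bound factors Creb3l2 (16.2 and 16.5 CPM to 145 and 147 CPM) and Nfe2l1 (126 and 119 CPM to 467 and 476 CPM) had the largest rises of this list, in which 13 of 18 genes were higher and 4 lower.

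ER chaperones rose, mostly by less than 2-fold. Hspa5, which encodes BiP, the main ER chaperone of the HSP70 family, was at 726 and 700 CPM with vehicle and at 1992 and 2055 CPM with TG (log2 change 1.5, SE 0.03, adjusted p = 3.05e-42). Hyou1, which recharges BiP with nucleotide, went from 197 and 186 CPM to 572 and 600 CPM. Hsp90b1, the ER form of HSP90, rose only from 1216 and 1124 CPM to 1693 and 1770 CPM, and the calcium-binding lectin chaperones Calr and Canx each had a log2 change of 0.32. Sdf2l1, a BiP cofactor, was at 81.1 and 81.4 CPM with vehicle and at 74.7 and 77.2 CPM with TG and was not called. Of 32 tested chaperones 24 were higher, 7 of them by at least 2-fold, and 3 were lower (Tmx1, Ppib and Cnpy3); the median log2 change was 0.52.

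The ER stress response element is the pair of blocks CCAAT and CCACG, 9 bases apart, that ATF6 and its partner NF-Y are known to bind. The letters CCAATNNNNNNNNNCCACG were found on either strand in the 250 bases before a RefSeq start of 18 of 9652 tested genes (0.19%). Whatever the call, they were in 7 of 27 tested chaperone genes with a promoter (25.93%). All 7 were among the 19 of these genes called higher (36.84%). The lower or uncalled genes were too few to tell whether the element went with the call. These 7 were Hspa5, Hsp90b1 with 2 matches, Calr, Canx, Creld2, Dnajc3 and Pdia6. The element is shown for 6 of them, with the match in capitals, because their changes differed from 0.32 to 1.5 on the log2 scale although all hold the full element.

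Hspa5 (chr2:34772015-34772053, + strand): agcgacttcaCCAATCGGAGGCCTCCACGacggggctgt
Dnajc3 (chr14:118937817-118937855, + strand): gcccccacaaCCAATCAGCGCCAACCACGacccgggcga
Pdia6 (chr12:17266481-17266519, + strand): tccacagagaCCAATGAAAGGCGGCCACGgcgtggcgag
Creld2 (chr15:88819510-88819548, + strand): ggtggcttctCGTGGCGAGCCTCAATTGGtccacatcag
Canx (chr11:50325790-50325828, - strand): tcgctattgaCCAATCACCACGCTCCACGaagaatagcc
Calr (chr8:84847065-84847103, - strand): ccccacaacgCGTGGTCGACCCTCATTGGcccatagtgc

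Dnajc3, a cochaperone that inhibits PERK, rose from 234 and 239 CPM to 397 and 408 CPM, the disulfide isomerase Pdia6 from 236 and 223 CPM to 361 and 370 CPM, and Creld2 from 58.5 and 60.2 CPM to 90.5 and 92.4 CPM.

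The remaining steps of ER protein handling rose in the same modest way. Of 29 tested members of the IRE1 and XBP1 list 26 were higher and 1 lower (Rpn2, which was not called without TG replicate 1), with a median log2 change of 0.40. Dnajb9, a BiP cochaperone and a standard XBP1 target, went from 9.81 and 9.51 CPM to 37.6 and 38.3 CPM (log2 change 1.97, SE 0.10). Sec61a1, the channel through which proteins enter the ER, went from 332 and 323 CPM to 796 and 817 CPM. Of 29 genes of ER-associated degradation 23 were higher and 2 lower (Edem1 and Os9): Herpud1, a scaffold of that machinery, went from 99.5 and 91.5 CPM to 181 and 187 CPM, and its ubiquitin ligase Syvn1 from 67.7 and 72.1 CPM to 155 and 161 CPM. Of 39 genes of transport from the ER to the Golgi 33 were higher and 3 lower, and Sec24d, a coat protein of the vesicles, rose most, from 44.4 and 41.3 CPM to 167 and 176 CPM.

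**Figure D3:**
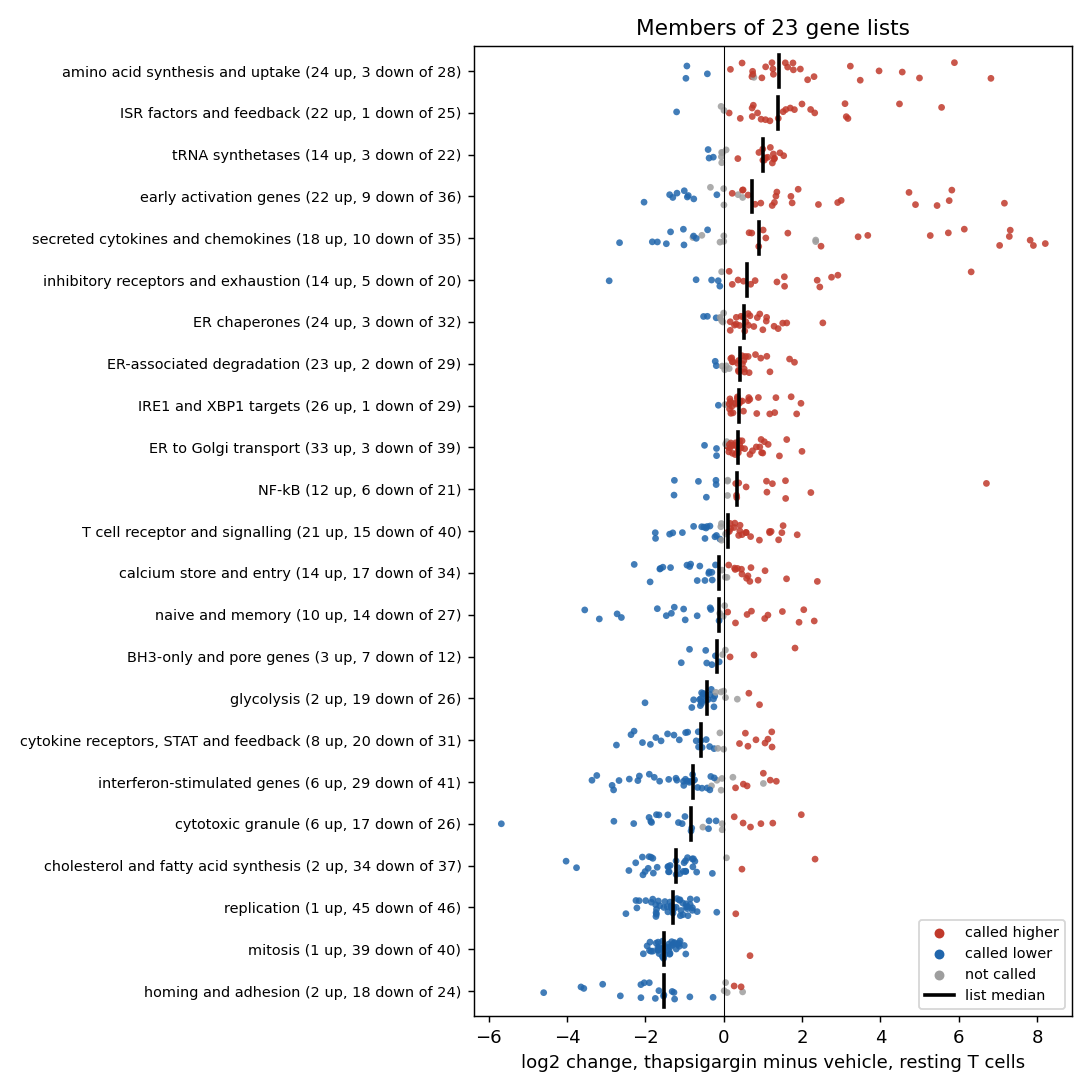
Log2 change (TG minus vehicle) of each tested member of 23 gene lists, red for genes called higher, blue for lower and grey for not called, with the list median as a black bar and the counts beside each name; the vertical spread of points within a list has no meaning. Amino acid and ISR genes have medians of 1.42 and 1.39 and the ER lists medians between 0.37 and 0.52, while mitosis and homing genes have medians of -1.52 and -1.53.

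Proliferation genes fell nearly without exception. Of 40 mitosis genes 39 were lower, 38 by at least 2-fold, with a median log2 change of -1.52; the exception was Cenpa, the histone variant of centromeres, at 128 and 136 CPM with vehicle and 210 and 209 CPM with TG. Of 46 replication genes 45 were lower, 33 by at least 2-fold, and the exception was Dut, which keeps uracil out of DNA (131 and 128 CPM to 157 and 163 CPM). Top2a, the topoisomerase of dividing cells, went from 1238 and 1216 CPM to 341 and 337 CPM, and Mki67 to 350 and 343 CPM. Rrm2, the limiting subunit of the enzyme that makes deoxynucleotides, went from 336 CPM in both to 60.7 and 58.3 CPM (log2 change -2.50, SE 0.05). Ccnd3, the cyclin D of lymphocytes, fell from 537 and 540 CPM to 95.7 and 92.0 CPM, one of 19 lower genes among 23 of the G1 list; the 2 higher genes were the inhibitors Cdkn2a and Cdkn2b. In 44 genes of the MYC network and ribosome biogenesis, 22 were higher and 12 lower, and none was called higher by 2-fold.

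Genes of lipid synthesis fell too. Of 37 tested genes of cholesterol and fatty acid synthesis 34 were lower, 24 by at least 2-fold, with a median log2 change of -1.22. Scd1, which desaturates fatty acids, went from 57.1 and 55.4 CPM to 3.69 and 3.18 CPM (log2 change -4.02, SE 0.10). Fads2, another desaturase, and Lss, which closes the sterol rings, had log2 changes of -3.76 and -2.42. Abca1, which exports cholesterol, rose from 6.19 and 8.50 CPM to 38.1 and 35.0 CPM, and Insig2, which retains the SREBP factors in the ER, had a log2 change of 0.46; these were the 2 higher members. Glycolysis genes fell less: 19 of 26 were lower, with a median log2 change of -0.42, and 1 of them, Aldoc, by at least 2-fold. Hif1a, which drives glycolysis in activated T cells, rose from 616 CPM in both to 1399 and 1444 CPM. Txnip, a glucose-responsive inhibitor of glucose uptake, fell from 594 and 568 CPM to 191 and 192 CPM, and Pik3ip1, a PI3K inhibitor of quiescent T cells, from 49.7 and 51.3 CPM to 5.57 and 6.46 CPM.

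Most interferon-stimulated genes fell while Ifng rose. Of 41 tested members 29 were lower and 6 higher, with a median log2 change of -0.79. Mx1, an antiviral GTPase, went from 55.3 and 59.8 CPM to 6.17 and 4.91 CPM, Oas3, an RNA sensor, from 328 and 330 CPM to 47.0 and 44.1 CPM, and Ddx58, which encodes RIG-I, from 169 and 164 CPM to 36.3 and 36.5 CPM. The higher members included Gbp2, Gbp3 and Gbp5, guanylate-binding proteins, with log2 changes of 0.50, 1.19 and 1.01. Of 22 genes of MHC class I presentation 13 were lower and 6 higher; H2-K1 and B2m moved little, with log2 changes of 0.12 and -0.10, and the immunoproteasome genes Psmb8 and Psmb10 fell with -1.13 and -1.79. Copies of the H2 genes are similar, so reads may be split among them. In the NF-kB list 12 of 21 genes were higher and 6 lower. Tnip3, an inhibitor of the pathway, went from 0.482 and 0.462 CPM to 50.8 and 49.7 CPM, Relb from 24.3 and 24.0 CPM to 112 and 113 CPM, and Tnfaip3, which encodes the inhibitor A20, from 64.7 and 60.7 CPM to 182 and 192 CPM.

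Death and survival genes moved in both directions, as did all tested genes, of which 34.1% were higher and 35.2% lower. Bbc3, which encodes the BH3-only killer PUMA, was at 34.4 and 41.9 CPM with vehicle and at 25.5 and 30.0 CPM with TG (log2 change -0.46, SE 0.12, adjusted p = 0.00352), a call that was lost without TG replicate 1 (adjusted p = 0.0742). Bcl2l11, which encodes BIM, rose from 194 and 193 CPM to 223 and 209 CPM, a log2 change of 0.16. Pmaip1 (NOXA) was at 48.9 CPM in both vehicle libraries and at 51.2 and 49.4 CPM with TG and was not called. Over 12 tested BH3-only and pore genes 3 were higher and 7 lower; the lower count was 4 with DESeq2 and 3 without TG replicate 1. Of 13 survival genes 5 were higher and 5 lower: Bcl2l1, which encodes BCL-XL, fell from 116 and 118 CPM to 41.0 and 44.2 CPM, Mcl1 had a log2 change of -0.39, and Bcl2a1b and Bcl2a1d, near-identical copies whose reads may be split, had changes of 2.11 and 2.40. Tnfrsf10b, the death receptor DR5, had a log2 change of 0.42. Of 22 death receptor and caspase genes 14 were lower and 6 higher, among them Fas (20 and 21.4 CPM to 57.8 and 57.2 CPM) and the inflammatory caspase Casp4 (7 and 8.31 CPM to 46.1 and 44.6 CPM). The p53 targets were divided, with 12 of 25 higher and 8 lower, where 34.1% of all tested genes were higher and 35.2% lower. Among these targets Cdkn1a, which encodes p21, had a log2 change of 0.09.

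Other stress routes were divided too. Of 22 heat shock genes 10 were higher and 9 lower, where 34.1% of all tested genes were higher and 35.2% lower. Hspa4l, an HSP110 relative, rose from 39.2 and 40.7 CPM to 310 and 312 CPM, and the mitochondrial chaperone Hspa9 from 336 and 319 CPM to 898 and 944 CPM, while the cytosolic Hspa8 fell from 1450 and 1407 CPM to 913 and 928 CPM. Of 29 NRF2 and antioxidant genes 20 were lower and 6 higher; Hmox1, which breaks down heme, rose from 19 and 18.9 CPM to 58.5 and 60.7 CPM, and Osgin1 fell from 24.8 and 25.2 CPM to 2.41 and 1.98 CPM. Of 35 autophagy and lysosome genes 16 were higher and 10 lower, and the lysosomal protease Ctsl went from 1.37 and 2.03 CPM to 40.7 and 42.3 CPM. Of the 7 mitochondrially encoded mRNAs that were tested 6 were lower, by at most 0.39 on the log2 scale; without vehicle replicate 1 or TG replicate 2 the count was 3, and the other 6 such mRNAs are listed at 0 in these libraries.

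Genes outside these lists gave some of the largest changes; those given here averaged 10 CPM or more with vehicle or with TG, and gene models were left out. Rbpms2, an RNA-binding protein, had no count in either vehicle library and 27.4 and 25.5 CPM with TG, at least 206-fold higher. Jag1, a ligand of Notch receptors, went from 0.0804 and 0.831 CPM to 130 and 134 CPM (log2 change 8.23, SE 0.15). Tnfaip2 went from 0.0804 and 0.369 CPM to 62.3 and 63.3 CPM. Such rises were ranked among called genes with no overlap between the pairs, so the separation of their libraries follows from that choice. Cd24a, a surface glycoprotein, had 3 counts with vehicle and 1066 with TG, a ratio of 332 (95% exact interval 113 to 1611), and Cd33, a sialic acid receptor best known from myeloid cells, had 3 and 887 counts, a ratio of 276 (94.1 to 1341). Bdh2 had a ratio of 406 (72.5 to 16077) and Lctl of 398 (71.0 to 15746).

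Among the falls, Tgm2, a transglutaminase, went from 126 and 124 CPM to 3.16 and 1.29 CPM, and Igfbp4, which binds insulin-like growth factors, from 142 CPM in both to 3.46 and 1.81 CPM. Cdh1, which encodes E-cadherin, went from 66.1 and 68.2 CPM to 2.26 and 1.03 CPM, and the collagen genes Col6a1 and Col6a2 from 16.2 and 19.1 CPM to 0.376 and 0.172 CPM and from 43.9 and 47.9 CPM to 1.20 CPM in both. These 5 genes were ranked among called genes with no overlap between the pairs, so the separation of their libraries follows from that choice. Esm1, Gucy2e, Ifit1bl1, Klhl30 and Ly6g5b completed the 10 largest falls of genes with at least 10 CPM with vehicle, gene models left out, with log2 changes between -6.32 and -5.15. In CPM the cytoskeletal genes lost most after Gzmb: Actb, which encodes beta-actin, went from 8338 and 8290 CPM to 1666 and 1683 CPM, Tmsb4x, which binds actin monomers, from 3758 and 3692 CPM to 688 and 640 CPM, and Vim, which encodes vimentin, from 4884 and 4865 CPM to 1679 and 1785 CPM. Ogt, the enzyme that adds N-acetylglucosamine to nuclear and cytosolic proteins, was among the 5 largest rises in CPM, from 593 and 604 CPM to 1788 and 1629 CPM.

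The same dose and time of TG was also given to control-guide T cells activated with anti-CD3 at 2.5 µg/mL for 24 hours, so the response can be set beside that of another T cell state. These 4 libraries share none with the resting comparison. The effect of TG differed between activated and resting cells in 6971 of 13432 genes (51.9%), more positive in activated cells in 3588 (26.7%) and more negative in 3383 (25.2%), by edgeR's test of the difference of the effects. Across genes the effects had a Pearson r of 0.62 and a Spearman rho of 0.57, as a description; genes are not independent and the 4 libraries of each state share a fit and scaling. The cell cycle and lipid lists had like medians: mitosis genes had a median log2 change of -1.52 in both states, and cholesterol and fatty acid genes -1.22 in resting and -1.18 in activated cells.

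Activation genes separated the states. Ifng was already at 4712 and 4874 CPM in activated vehicle cells and rose to 10396 and 10209 CPM with TG, a log2 change of 1.10 against 7.31 in resting cells (difference -6.21, SE 0.06). Xcl1 was at 1109 and 1115 CPM with anti-CD3 alone and fell to 913 and 906 CPM with TG, so the effect was opposite to that in resting cells (difference -8.50, SE 0.09, adjusted p = 1.49e-56). In resting cells TG alone brought Xcl1 to 678 and 701 CPM, and in both TG states it thus lay below the activated vehicle libraries. Nr4a3 reached 1164 and 1128 CPM in activated cells with TG from 331 and 312 CPM, and its level in resting TG cells, 1249 and 1286 CPM, was above both. Egr2 was at 44.0 and 39.5 CPM with anti-CD3 alone and 58.4 and 61.4 CPM with TG, each below the 109 and 111 CPM of resting TG cells. Of 35 cytokines and chemokines 25 had a more negative effect in activated cells and 4 a more positive one; of 36 early activation genes 24 and 7. Il2, by contrast, was at 16.2 and 15.7 CPM with anti-CD3 alone and 31.2 and 29.5 CPM with TG added, levels that the resting cells did not approach.

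Some of the falls in resting cells were not seen in activated cells. Ccr2 was at 88.3 and 89.5 CPM in activated vehicle cells and at 93.4 and 94.0 CPM with TG, a log2 change of 0.08 that was not called, against -3.57 in resting cells (difference 3.65, SE 0.07). Sgk1, a kinase downstream of PI3K, fell in resting cells from 62.5 and 61.2 CPM to 16 and 14.9 CPM and rose in activated cells from 12 and 12.1 CPM to 50.2 and 47.2 CPM. Atp2a3 had no comparable fall either. Its level in activated vehicle cells, 78.9 and 80.9 CPM, was already below that of resting TG cells, and TG changed it by -0.12. Gzmb fell in both states, from 19872 and 20390 CPM to 6004 and 6013 CPM in activated cells, by less than in resting cells (difference 1.06, SE 0.04). Of 25 ISR genes 10 had a more positive effect in activated cells and 6 a more negative one, with medians of 1.39 in resting and 1.51 in activated cells. Of 28 amino acid genes 3 had a more positive and 17 a more negative effect, and of 22 synthetase genes 2 and 12. Ddit3 rose more in activated cells (log2 change 3.21, difference 1.21, SE 0.13), Atf4 did not differ by the test (difference -0.10, SE 0.05, adjusted p = 0.122), and Atf3, raised by anti-CD3 alone to 147 and 149 CPM, fell there to 105 CPM in both. BIM and PUMA transcripts differed: Bcl2l11 rose in activated cells with a log2 change of 1.29 and Bbc3 with 1.27, with differences from resting cells of 1.13 (SE 0.08) and 1.73 (SE 0.19). The MYC and ribosome biogenesis genes had a more negative effect in activated cells in 37 of 44.

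**Figure D4:**
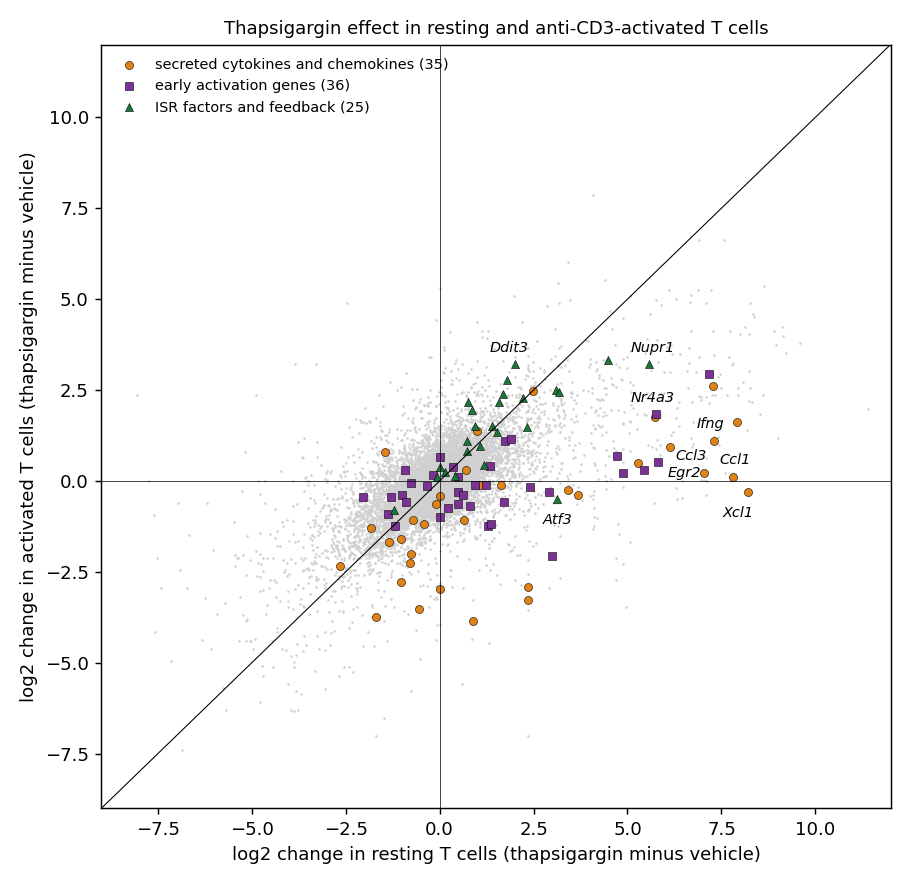
Log2 change with TG in resting T cells (horizontal) and in activated T cells (vertical) for each of 13432 genes in grey, with cytokines and chemokines as orange circles, early activation genes as purple squares and ISR genes as green triangles; the diagonal is equal change. Xcl1, Ccl1, Ifng and Egr2 lie far right of the diagonal, while ISR genes lie on both sides of it.

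Control-guide B16F10 melanoma cells, a mouse skin tumour line, were given the same dose and time of TG and show how the resting T cells' response compares with that of another cell type. Values for this comparison come from a fit and scaling over all 20 libraries and 14824 genes. The effect differed from that in resting T cells in 7028 genes (47.4%), more positive in melanoma in 3496 (23.6%) and more negative in 3532 (23.8%). Across genes Pearson r was 0.19 and Spearman rho 0.30. Folding genes responded less in the T cells: of 32 ER chaperones 25 had a more positive effect in melanoma and 4 a more negative one, with medians of 1.2 and 0.53, and of the 29 IRE1 and XBP1 targets 25 and 0. Hspa5 rose in melanoma from 1618 and 1603 CPM to 16520 and 15990 CPM, a log2 change of 3.34 (difference from resting T cells 1.82, SE 0.04). Herpud1 and Sdf2l1 had changes of 3.94 and 3.12 in melanoma, with differences of 2.98 (SE 0.06) and 3.20 (SE 0.07).

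Of 25 ISR genes 18 had a more positive effect in melanoma and 1 a more negative one, with medians of 2.84 in melanoma and 1.41 in resting T cells. The test did not separate the cell types for Nupr1, which rose by 5.44 on the log2 scale in melanoma (difference -0.14, SE 0.24, adjusted p = 0.724), nor for Chac1, which rose by 2.84 (difference -0.34, SE 0.17, adjusted p = 0.0873). Ddit3 rose by 4.72 in melanoma, from 29.2 and 34.7 CPM to 848 and 826 CPM (difference 2.71, SE 0.11), and Trib3 by 4.65 (difference 2.83, SE 0.08). Eif2ak3 had opposite directions, rising in melanoma from 53.6 and 55.4 CPM to 154 and 156 CPM (difference 3.51, SE 0.06). Atp2a3 was opposite as well, at 0 and 0.0705 CPM in melanoma with vehicle and 27.0 and 31.5 CPM with TG. The fall in lipid synthesis was not shared: the list median was 0.13 in melanoma against -1.20 in resting T cells, 30 of 37 genes had a more positive effect in melanoma, and Scd1 was at 239 and 236 CPM with vehicle and 261 and 258 CPM with TG.

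**Figure D5:**
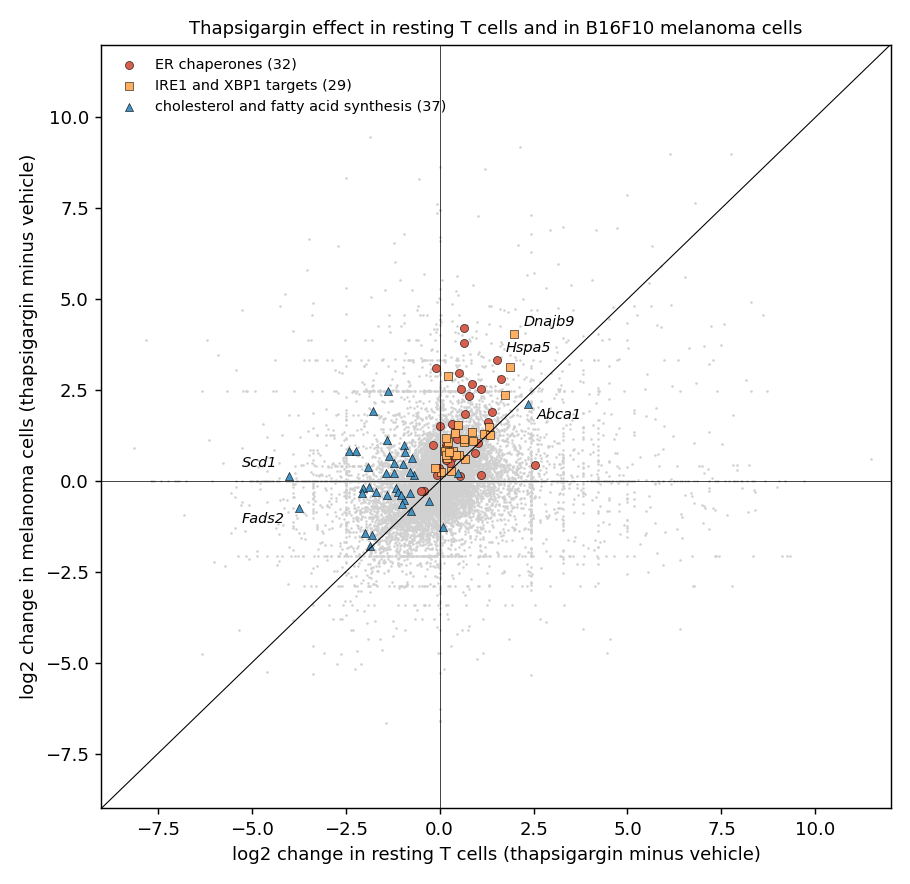
Log2 change with TG in resting T cells (horizontal) and in control melanoma cells (vertical) for each of 14824 genes in grey, with ER chaperones as red circles, IRE1 and XBP1 targets as orange squares and cholesterol and fatty acid genes as blue triangles; the diagonal is equal change. Most ER genes lie above the diagonal, with Hspa5 at 3.34 in melanoma and 4 of 32 ER chaperones called below it; most lipid genes lie left of 0 near the horizontal line, with Abca1 and Insig2 right of 0.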

How the data were processed

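The deposited values are gene counts of total RNA. Per the submitters' processing notes, the authors used STAR 2.6.0c, HTSeq and the mouse build GRCm38 (mm10); the HTSeq version, strand setting and annotation are not given in the sources used here. The table held 46603 identifiers. GENCODE M21 gave a symbol to 46005 of them, and the 598 others held 0.0759% of the counts. Of 248 genes chosen by the naming rule, 63 share an exon position with a gene on the opposite strand. Examples are Ddit3 with Mars, Atf5 with Nup62, Kdelr3 with Ddx17, and Atp2a2, Orai1, Xcl1 and Eif2ak3 with unnamed gene models. Whether the reads of such pairs were told apart is not known, because the strand setting is not given.

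The test was edgeR 4.0.16 under R 4.3.3, with scaling by the trimmed mean of M values, filterByExpr, a robust quasi-likelihood fit and Benjamini-Hochberg adjustment. The 12 T cell libraries were fitted together (13432 genes, 6 residual degrees of freedom), and all 20 libraries for melanoma (14824 genes, 10 residual degrees of freedom). Calls used an adjusted p threshold of 0.05, and each SE was derived from the log2 change and its F statistic. CPM use the scaled library sizes. Genes with at most 3 counts in a group are given as a bound against 3 counts or as a ratio with a 95% exact binomial interval (scipy 1.17.1), which cover counting error only. Promoter searches left out genes on chromosome 18. On simulated counts of this comparison (13159 genes) edgeR recovered 58%, 80%, 92% and 100% of the genes changed by 1.25, 1.5, 2 and 4-fold. It made 5 false calls. The simulation drew from the fitted model and changed only a small set of genes that were not of low count. In the data 69.2% of the tested genes were called, so these rates may not carry over.

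Gene lists, the naming rule and the comparisons were chosen with earlier results of these data known. The rule named a fixed panel; the 10 largest called rises and the 10 largest called falls on the log2 scale among genes with no overlap between the groups and a mean of 10 CPM or more with vehicle or TG; the 5 largest each way in CPM; up to 5 members per list with its best-known members; and 5 genes each way per difference of effects at 10 CPM or more. Names of gene models (Gm numbers, names ending in Rik, accessions, pseudogenes) were left out of these rankings; further list members were named after their values were seen. Alternatives were DESeq2 1.42.0, another scaling, other filters, a replicate block, smaller fits and each library left out.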

Additional observations from a re-analysis of the deposited data

Results flagged for a closer look

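4 of the genes named by the rule were called in opposite directions in resting and activated T cells with a difference of effects of at least 4 on the log2 scale, each by edgeR's test of the difference. Xcl1 rose in resting cells and fell in activated cells, with a difference of -8.50. Sgk1 did the reverse, with a difference of 4.01. Slc1a2, a glutamate transporter, had a difference of -7.18; it had no count with vehicle in resting cells and 7 with TG, and its call there was lost without TG replicate 1 (adjusted p = 0.0626). Dram1, a lysosomal p53 target, had a difference of -4.19 at levels below 4 CPM in all 8 libraries.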

How the results depend on the processing

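Genes under about 1 CPM rest on a few counts at this depth. Under the alternatives run, no gene chosen by the naming rule had its call in the resting comparison change direction. Genes named outside the rule, and single genes in the differences of effects, were not followed in this way. Of the counts of called genes 103 stayed within 1.5 times of their value; the exception was the 1474 genes higher by at least 2-fold, which came to 974 with a filter of 5 CPM in 2 libraries, where 10580 genes were tested. DESeq2 called 3889 genes higher and 4018 lower. Leaving out each library in turn gave 4137 to 4398 higher and 4262 to 4498 lower, and leaving out the libraries labelled resting Atp2a2 knockout gave 4514 and 4769. Higher genes made up 48.6% to 50.8% of the calls in every setting. Whether the replicate numbers pair the samples is not known. The replicate differences of the vehicle and TG groups had r = -0.0189, which cannot settle it because a shared effect may be small beside noise. With a replicate block 4561 genes were higher and 4703 lower. Of the values for single genes 2676 kept their call and 30 lost it, all in genes of small change or low count, such as Bbc3, Hk3, Mitf and mt-Nd5.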

Other observations

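Cd40lg and Zbtb7b, 2 of 4 genes listed as linked to CD4 T cells, rose in these CD8 T cell libraries. Cd40lg, the CD40 ligand that helper T cells use to signal to B cells and dendritic cells, was at 0.965 and 0.739 CPM with vehicle and at 28.4 and 31.2 CPM with TG, a log2 change of 5.10. Zbtb7b, the factor known for the CD4 lineage choice, rose from 60.6 and 67.0 CPM to 116 and 121 CPM. Cd4 itself was below 1 CPM in all 4 libraries, and 10 of 10 CD8 markers were detected in each. Of the 4 genes of this list 3 were tested, with 2 higher and 1 not called, where 34.1% of all tested genes were higher. The summed level of the list was 62.9 and 68.5 CPM with vehicle and 144 and 153 CPM with TG.

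Among 23 genes of mTORC1 and starvation signalling 10 were higher and 11 lower; without vehicle replicate 1 these were 10 and 9. Fnip1, a partner of folliculin in amino acid sensing, rose with a log2 change of 1.63, and Castor1, the arginine sensor of mTORC1, fell from 25.8 and 25.3 CPM to 3.91 and 4.99 CPM. Of 14 hypoxia factors 4 were higher and 6 lower. Beside both lists, 34.1% of all tested genes were higher and 35.2% lower. Epas1, which encodes HIF-2 alpha, fell from 32.7 and 30.2 CPM to 3.38 and 3.44 CPM.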
